A study of Danio rerio with 3 samples.

Results

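Among 672 single-cell wells from the growing zebrafish anal fin, 115 held little or none of the water channel transcript used here as a blood vessel marker, aqp8a.1, and none of 4 lymphatic transcripts. These double-negative wells had at most 1 unique molecular identifier (UMI, a tag on each captured transcript) of aqp8a.1 and 0 UMIs of lyve1a, mrc1a, stab1 and prox1a together. Only wells on the authors' list of analysed cells with at least 500 UMIs were considered, which were 672 of 1036 listed wells and of 1152 wells in the tables. The cells carried a dsRed reporter under fli1a and were sorted from the anal fins of immature fish at stage II-III, with 80 fins named for each of the 3 plates. All wells share this reporter, tissue and stage, and no treatment or second genotype is named. Whether each plate had its own fish is not stated in the labels. The p-values rest on how far the difference between classes varies from plate to plate, and that spread may be technical. The reporter marks cells in which fli1a regulatory sequence is active, and fli1a is also transcribed in some blood and mesenchymal cells. MARS-seq, the plate-based method used, counts the 3' ends of poly(A) transcripts in each sorted well.

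Endothelial cells line blood and lymphatic vessels and share a core of genes such as fli1a, pecam1 and kdrl, while other genes separate arteries, capillaries, veins and lymphatics. Lymphatic endothelium depends on the transcription factor Prox1 and the VEGF-C receptor Flt4, and takes up material through scavenger receptors such as Stab1, Mrc1 and Lyve1. The series title concerns blood vessels that form from lymphatic vessels.

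The double-negative wells were 47 of 289 on plate 1, 41 of 271 on plate 2 and 27 of 112 on plate 3. Their share was 16.3%, 15.13% and 24.1% (mean 18.5% ± 4.89, SD, n = 3 plates). Of the other 557 wells, 167 had aqp8a.1 only, 153 had lymphatic markers only and 237 had both. The values that chose the wells are a description: aqp8a.1 stood at 385, 366 and 408 CPM (UMIs per 1000000 UMIs outside the 5 rule genes) on plates 1, 2 and 3 in double-negative wells and at 6512, 7371 and 6371 in the rest. Levels are given in this unit and this order of plates throughout. The double-negative sums held 54573, 46415 and 24529 UMIs, and those of the rest 477534, 407914 and 89880. Just inside the threshold lay 48 wells with 1 aqp8a.1 UMI, beside 67 wells with none. Just outside lay 20 wells with 2 aqp8a.1 UMIs and no lymphatic UMI, and 61 wells with 1 lymphatic UMI and at most 1 of aqp8a.1.

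Double-negative wells were shallower than the rest. Their median depth was 963, 829 and 725 UMIs on plates 1, 2 and 3, against 1543.5, 1436 and 909 in the other wells. Wells under 1000 UMIs made up 60% of double-negative wells and 31.1% of the rest. The share of double-negative wells was 30.8% (45 of 146 wells, exact 95% interval 23.5% to 39.0%) from 500 to below 750 UMIs and 8.18% (22 of 269, 5.20% to 12.1%) from 1500 UMIs upward. When every well was thinned to 500 UMIs before the rule was applied, 241 of 672 wells (35.9%) met it. These included all 115 double-negative wells and added 33 aqp8a.1-only wells, 50 lymphatic-marker-only wells and 43 wells with both. At a fixed depth of 500 UMIs the median number of genes per well was 308 in double-negative wells and 311 in the rest. The mitochondrial share of UMIs was 18.9% in each. Binomial intervals and limits from counts of 0 cover counting error only.

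**Figure D1:**
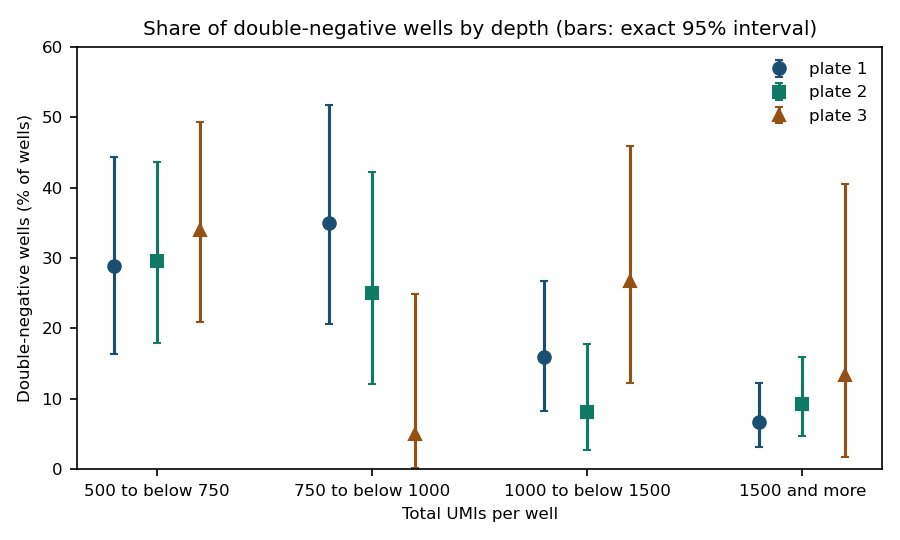
Share of double-negative wells (percent of listed wells) in 4 ranges of total UMIs per well, with 1 point per plate and exact 95% binomial intervals. Over all plates the share was 30.8% from 500 to below 750 UMIs and 8.18% from 1500 UMIs upward, and on plate 3 it did not fall at every step (5.0% from 750 to below 1000 UMIs, 26.7% from 1000 to below 1500).

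All 384 cell barcodes were used on every plate, so a well position could in principle recur. Double-negative positions shared by plates 1 and 2 were 4 of 223 positions deep enough on both, those shared by plates 1 and 3 were 7 of 89, and those shared by plates 2 and 3 were 3 of 82. No position was double-negative on all 3 plates.

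The double-negative wells carried the endothelial core. Summed over 25 pan-endothelial genes, they held 7717, 7867 and 6403 CPM on plates 1, 2 and 3, against 7249, 7661 and 8525 in the rest. The classes overlapped, with the double-negative wells higher on plates 1 and 2 and lower on plate 3. In aqp8a.1-only wells alone the list stood at 8254, 9674 and 8646 CPM, above every double-negative sum. Lymphatic-marker-only wells held 7327, 6714 and 8266, which overlapped the double-negative sums. Of the 115 wells, 112 had at least 1 pan-endothelial UMI, and none lacked both pan-endothelial and other blood vessel UMIs (a count of 0 of 115 allows up to 2.61%). At 500 UMIs per well, 70.4% of double-negative wells (81 of 115, 61.2% to 78.6%) and 68.9% of the rest (384 of 557, 64.9% to 72.8%) had 3 or more pan-endothelial UMIs. No cell type known to lack these genes was sorted, so the part of free RNA in such shares was not tested.

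Gene by gene, 0 of the 18 pan-endothelial genes tested passed the threshold, while 2.63% of all 914 genes tested did (24 genes, edgeR quasi-likelihood test with plate as block, Benjamini-Hochberg adjusted p under 0.05). In this list, 3 genes had an unadjusted p under 0.05, and 9 of the 18 differences were positive, beside 467 of all 914. Of the 3, ramp2 lay just outside the threshold (log2 -0.92 ± 0.27, SE, edgeR adjusted p = 0.0571). It was lower in double-negative wells on every plate without overlap. The median log2 difference of the list was -0.01, beside 0.01 over all genes tested. Against aqp8a.1-only wells 1 of 18 was called, cdh5 as lower, and 5 differences were positive (median log2 -0.15). Of all 1208 genes tested there, 0.414% were called and 629 had positive differences. Against lymphatic-marker-only wells 1 was called, ramp2 as lower, and 11 were positive (median log2 0.05). Of all 1208 genes in that comparison, 1.82% were called and 648 had positive differences. For fli1a, an ETS transcription factor gene, double-negative wells held 605, 453 and 204 CPM and the rest 595, 606 and 628. The difference was -0.39 ± 0.27 on the log2 scale (SE, edgeR adjusted p = 0.690), with the double-negative wells lower on plates 2 and 3. The adhesion receptor gene pecam1 stood at 752, 1142 and 693 against 722, 720.0 and 796 (log2 0.28 ± 0.21, SE, edgeR adjusted p = 0.753). The VEGF receptor gene kdrl stood at 439.9, 496 and 571 against 382, 537 and 763 (log2 -0.04 ± 0.26, SE, edgeR adjusted p = 0.968). The classes overlapped for all 3 genes. These tests could miss small changes. In simulated counts the comparison with the rest recovered 50% of genes changed 2-fold and 95.4% of those changed 4-fold. These percentages cover changed genes that passed the filter, 88 and 87. The simulation gave all genes 1 common spread and the same abundance on every plate, so recovery in the real counts may differ.

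**Figure D2:**
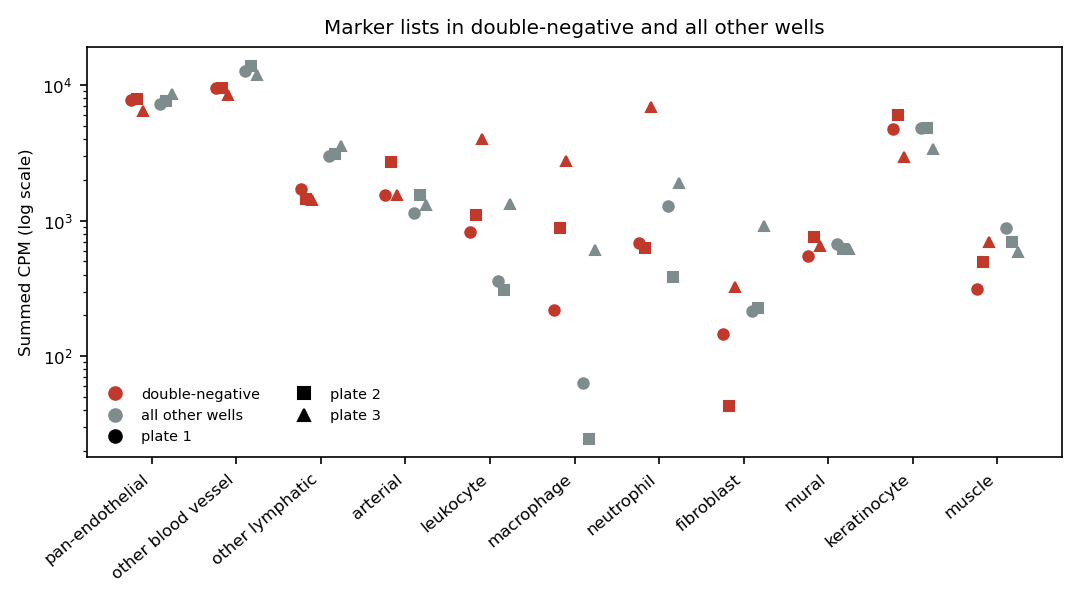
Summed level of marker lists (CPM, log axis) in double-negative wells and in all other wells, with 1 point per plate. Pan-endothelial, mural and keratinocyte levels overlap between the classes, the other blood vessel and other lymphatic levels are lower in double-negative wells on each plate, and leukocyte and macrophage levels are higher on each plate.

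Against all other wells, 14 genes rose and 10 fell in double-negative wells, 1.53% and 1.09% of the 914 tested, and 96 genes had an unadjusted p under 0.05. The genes that fell belong largely to vessel identity and to lysosomes. Those that rose include the keratin genes krt4 and krt94, the Notch ligand gene jag2b, and 2 genes of the myeloid lists. The wells were chosen by low vessel markers in the same libraries, so lower levels of other vessel genes are not independent of the rule. The naming rule for genes asked for the same direction on all plates. For genes named by it, here and below, a shared direction across plates is therefore a description. Overlap is given for named genes and for lists only, and its frequency among all genes tested is not given. The named genes were picked by p, which favours sums that do not overlap, so their lack of overlap is a description too.

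Other blood vessel genes were lower beyond the gene used for the choice. The list of 14 such genes summed to 9459, 9526 and 8483 CPM in double-negative wells and to 12607, 13876 and 11811 in the rest, with no overlap. Of 10 genes tested 2 fell, vsg1 and aqp1a.1, and the list's median log2 difference was -0.60. The row vsg1, which RefSeq synonyms pair with plvapb, a protein of the diaphragms that span endothelial fenestrae and caveolae, stood at 1063, 1035 and 1468 CPM against 2642, 2789 and 2995. It fell by 1.24 ± 0.16 on the log2 scale (SE, edgeR adjusted p = 4.76e-06). A second water channel gene, aqp1a.1, stood at 220.0, 43.1 and 449 against 479, 606 and 886 and fell by 1.58 ± 0.35 (SE, edgeR adjusted p = 0.00625). Both genes were lower in double-negative wells on all 3 plates without overlap. Lymphatic-marker-only wells alone held 9776, 9205 and 8377 CPM of the list, which overlapped the double-negative sums. Against those wells 8 of the 10 genes had positive differences (median log2 0.35), and vsg1 alone was called, as lower. Of all 1208 genes tested there, 648 had positive differences and 1.82% were called. At 500 UMIs per well, 67.8% of double-negative wells (78 of 115) and 83.5% of the rest (465 of 557) had 3 or more UMIs of this list, and without thinning 109 of 115 double-negative wells had at least 1.

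Lymphatic genes outside the rule were lower too, in wells chosen for having no UMI of the 4 lymphatic rule genes. The list was chosen with earlier results of these data known, so its fall is a description. Their 13 rows summed to 1705, 1444 and 1427 CPM in double-negative wells against 3019.7, 3083 and 3567, with no overlap, and 3 of 6 genes tested fell (median log2 -0.96). The VEGF-C receptor gene flt4 stood at 238, 108 and 81.6 against 536, 616 and 864 and fell by 1.97 ± 0.34 on the log2 scale (SE, edgeR adjusted p = 0.000676). The chemokine gene cxcl12a stood at 238, 172 and 204 against 636, 616 and 426 and fell by 1.46 ± 0.31 (SE, edgeR adjusted p = 0.00502). The Wnt ligand gene wnt16 stood at 165, 172 and 204 against 462, 485 and 561 and fell by 1.44 ± 0.32 (SE, edgeR adjusted p = 0.00625). In each case every plate's double-negative sum lay below all 3 sums of the rest. The lymphatic genes were not absent, since 81 of 115 double-negative wells had a UMI of this list. In aqp8a.1-only wells these were 115 of 167, and the list stood at 1952, 1413 and 1722 CPM, with overlap. Against those wells none of 9 genes tested was called, and 4 differences were positive (median log2 -0.40). Of all 1208 genes tested there, 0.414% were called and 629 had positive differences, so few calls are the norm. There cxcl12a was higher in double-negative wells on each plate (log2 0.64 ± 0.40, SE, edgeR adjusted p = 0.784).

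Of 7 endocytosis and lysosome genes tested against all other wells, 2 fell (median log2 -0.58). Against aqp8a.1-only wells 0 of 8 were called, beside 0.414% of all 1208 genes tested. There 5 of the 8 differences were positive (median log2 0.25), beside 629 of the 1208. The list summed to 3336, 3448 and 3752 CPM in double-negative wells and to 4764, 4667 and 5653 in the rest. In aqp8a.1-only wells it summed to 3733, 3187 and 2919, which overlapped the double-negative sums. The lysosomal protease gene lgmn had 0 UMIs in plate 1 double-negative wells and stood at 151 and 245 CPM on plates 2 and 3, against 277, 379 and 482 in the rest. It fell by 1.74 ± 0.43 on the log2 scale (SE, edgeR adjusted p = 0.0164). The gene of the lysosomal tetraspanin cd63 stood at 1411, 1142 and 979 against 1951, 1719.7 and 1873 and fell by 0.58 ± 0.16 (SE, edgeR adjusted p = 0.0457). Outside these lists vwa1, a matrix protein gene, fell by 1.16 ± 0.31 (edgeR adjusted p = 0.0318). The row si:dkey-28n18.9, which carries no assigned name here, fell by 1.99 ± 0.53 (edgeR adjusted p = 0.0326). The actin-binding protein gene marcksl1a fell by 0.75 ± 0.20 (edgeR adjusted p = 0.0326). For all 5 genes the double-negative sums lay below those of the rest on every plate without overlap.

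**Figure D3:**
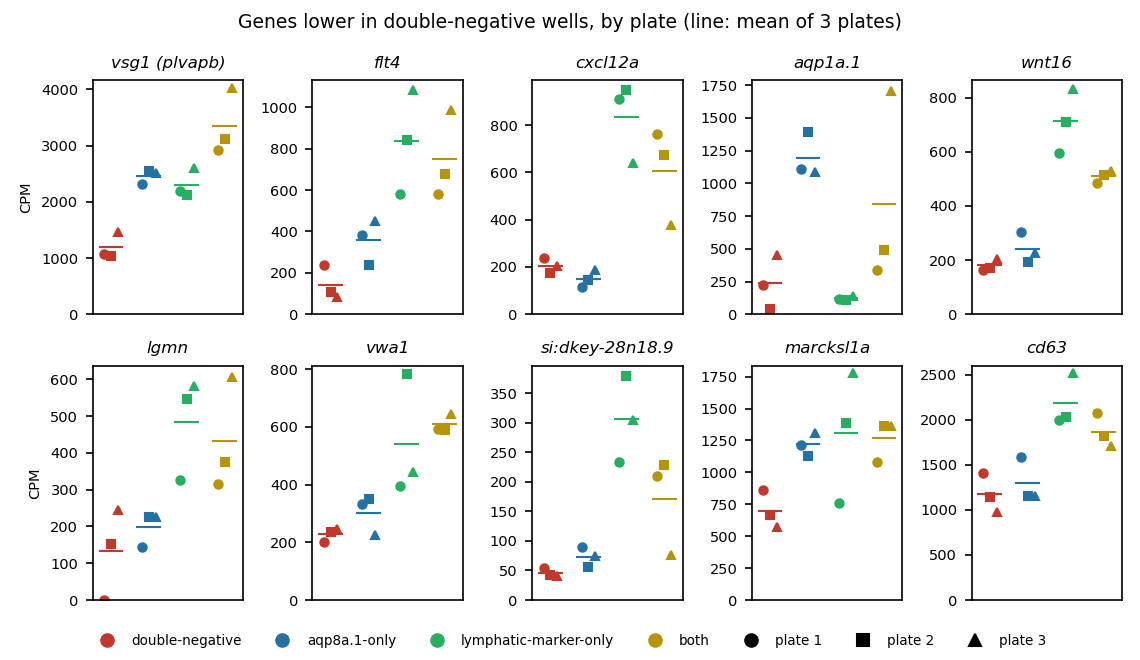
The 10 genes that fell in double-negative wells, in CPM on linear axes that start at 0, for the 4 classes of wells. Each point is a plate and each line the mean of 3 plates, and vsg1 in double-negative wells (1063 to 1468) lies below all other points of that gene.

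The strongest rise by p-value was in krt4, a keratin gene, which stood at 1319.8, 1616 and 897 CPM in double-negative wells and at 572, 557 and 639 in the rest. It rose by 1.22 ± 0.20 on the log2 scale (SE, edgeR adjusted p = 0.00041), and the lowest double-negative value exceeded the highest of the rest. Another keratin gene, krt94, stood at 1759.8, 3298 and 1958 against 1313, 1495 and 1077 and rose by 0.85 ± 0.16 (SE, edgeR adjusted p = 0.00161). A krt4 UMI was seen in 61 double-negative wells and a krt94 UMI in 77. The keratinocyte list as a whole was level, at 4766, 5992 and 2936 CPM against 4827, 4808 and 3365. Of its 20 rows 7 had a UMI in double-negative wells, 10 in aqp8a.1-only wells and 11 in lymphatic-marker-only wells. In double-negative wells most of these UMIs were of icn (408 of 610), and the epithelial genes epcam, cdh1 and tp63 were at 0. Of 3 keratinocyte genes tested, krt4 alone passed (median log2 0.02). Without wells of 3 or more keratinocyte-list UMIs, a list that holds krt4 itself, 2 of 405 genes passed in all, sgpl1 and vsg1, and krt94 stood at log2 -0.049.

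The retinoic acid-degrading enzyme gene cyp26b1 stood at 403, 539 and 245 CPM against 146, 139 and 101 and rose by 1.67 ± 0.32 on the log2 scale (SE, edgeR adjusted p = 0.00179). The gene spns2, which encodes an exporter of sphingosine-1-phosphate, stood at 769.9, 819 and 1101 against 357, 433 and 471 and rose by 1.11 ± 0.23 (SE, edgeR adjusted p = 0.00449). The gene of the lyase that breaks down the same lipid, sgpl1, stood at 238, 366 and 408 against 92.9, 134 and 89.7 and rose by 1.61 ± 0.38 (SE, edgeR adjusted p = 0.013). Each of these genes was higher in double-negative wells on every plate, as the naming rule requires, and the sums did not overlap. Double-negative wells with a UMI were 25 for cyp26b1, 46 for spns2 and 29 for sgpl1.

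The arterial list had 1 of 5 tested genes called, jag2b, and all 5 had positive differences (median log2 0.45). Over all 914 genes tested, 2.63% were called and 467 had positive differences. The Notch ligand gene jag2b stood at 422, 927 and 367 CPM against 237, 287 and 213 and rose by 1.24 ± 0.27 on the log2 scale (SE, edgeR adjusted p = 0.00625), without overlap. The Notch ligand gene dll4, by comparison, stood at 312, 474 and 449 against 245, 292 and 348 (log2 0.53 ± 0.28, SE, edgeR adjusted p = 0.542). The ephrin gene efnb2a, an arterial marker, stood at 165, 172 and 204 against 108, 230.1 and 202 (log2 0.10 ± 0.39, SE, edgeR adjusted p = 0.947). Summed over 14 rows, arterial genes reached 1539.8, 2716 and 1549.8 CPM against 1147, 1551 and 1301, with values that overlapped. In aqp8a.1-only wells the list stood at 1459, 2566 and 2133 CPM, also with overlap. Against those wells 0 of 7 genes tested were called, beside 0.414% of all 1208 tested. Of the 7 differences 2 were positive (median log2 -0.20), beside 629 of the 1208. There jag2b had log2 0.96 ± 0.34 (SE, edgeR adjusted p = 0.31). Against lymphatic-marker-only wells 0 of 7 were called, beside 1.82% of all 1208 genes tested. All 7 differences were positive (median log2 0.70), beside 648 of the 1208.

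Further genes that rose were sulf2b, which encodes a sulfatase acting on heparan sulfate (log2 1.53 ± 0.30, SE, edgeR adjusted p = 0.00219), and pcdh19, a protocadherin gene (1.26 ± 0.32, edgeR adjusted p = 0.0185). The adhesion receptor gene adgre5a stood at 165, 388 and 326 CPM against 33.8, 42.1 and 44.9. It rose by 2.83 ± 0.59 (SE, edgeR adjusted p = 0.00418) on 35 UMIs in 20 double-negative wells. Of these UMIs 37.1% lay in 7 wells with 3 or more myeloid UMIs, 4 of which had 10 or more. The complement factor D gene cfd stood at 568, 1056 and 408 against 393, 324 and 202 and rose by 1.15 ± 0.27 (SE, edgeR adjusted p = 0.013). These 4 genes were higher on each plate without overlap. The intermediate filament gene vim stood at 495, 1164 and 163 against 355, 337 and 67.3 and rose by 1.22 ± 0.29 (SE, edgeR adjusted p = 0.014). It was higher on each plate, but the plate 3 value lay below 2 values of the rest. Of 22 actin and motility genes tested, vim rose and marcksl1a fell (median log2 0.00). The row si:ch211-285f17.1 also passed (log2 1.28, edgeR adjusted p = 0.0197), though it was lower on plate 3, and it falls outside the rule for named genes.

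**Figure D4:**
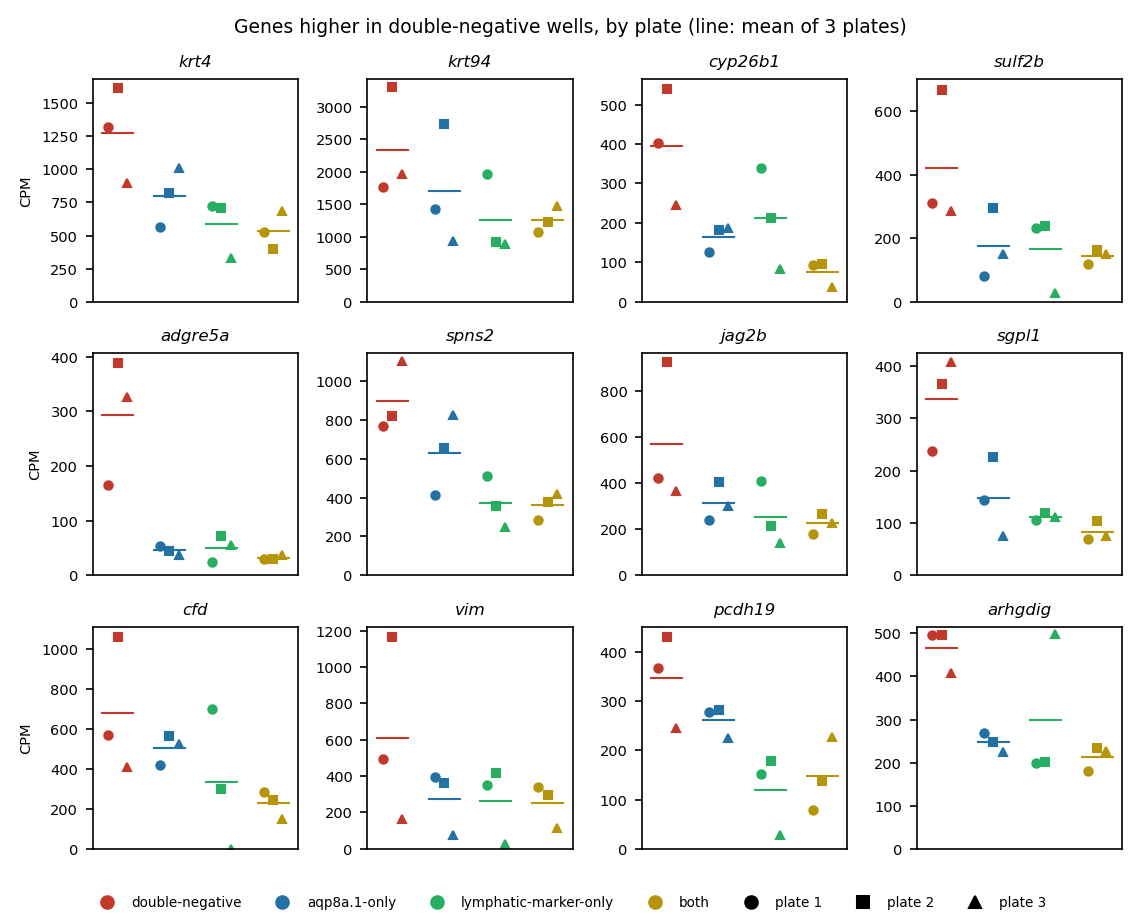
The 12 genes that rose in double-negative wells and met the naming rule, in CPM on linear axes that start at 0, for the 4 classes of wells. Each point is a plate and each line the mean of 3 plates; adgre5a in double-negative wells (165 to 388) lies above every other point of that gene.

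The higher genes were spread over wells. At 500 UMIs per well, 4 or more of these 12 genes were seen in 30.4% of double-negative wells, 18% of aqp8a.1-only wells, 12.4% of lymphatic-marker-only wells and 5.06% of wells with both. None of the 12 was seen in 15.7% of double-negative wells and in 27.6% of the rest. The genes were picked for being higher in the same wells, so these shares are a description.

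The low-count cutoff stood near 139 CPM and had to be reached in 3 of the 6 sums. Among the 24 called genes, adgre5a and sgpl1 reached it only in double-negative sums, and si:dkey-28n18.9 only in sums of the rest, so these 3 entered the test only through the class where they are high. With no filter adgre5a and si:dkey-28n18.9 still passed (edgeR adjusted p = 0.000693 and 0.00282) and sgpl1 did not (edgeR adjusted p = 0.186). Of the 24 called genes 14 passed with no filter, including all 10 that fell. That fit was shifted downward, with a median log2 difference of -0.88 over 15481 genes and 104 lower beside 8 higher calls. It therefore favours genes that fell.

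These counts moved with the plates, the depth and the test. Without plate 1 no gene passed (0 of 962 tested, 84 at an unadjusted p under 0.05), without plate 2 there were 9 calls and without plate 3 there were 33, while DESeq2 called 6 of 914. In wells of 500 to 1000 UMIs in both classes edgeR called no gene among 354, with 26 below an unadjusted p of 0.05, and the 14 of the 24 genes that could be tested there all kept their direction. With every well thinned to 500 UMIs and the classes kept, 10 of 400 genes passed, and 8 of 16 testable genes of the 24 were among them. Where a random split of the UMIs chose the classes and the remaining UMIs were tested, 13 of 19 testable genes passed and all 19 kept their direction. These settings reuse the wells that gave the calls, so a kept direction is a description.

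**Figure D5:**
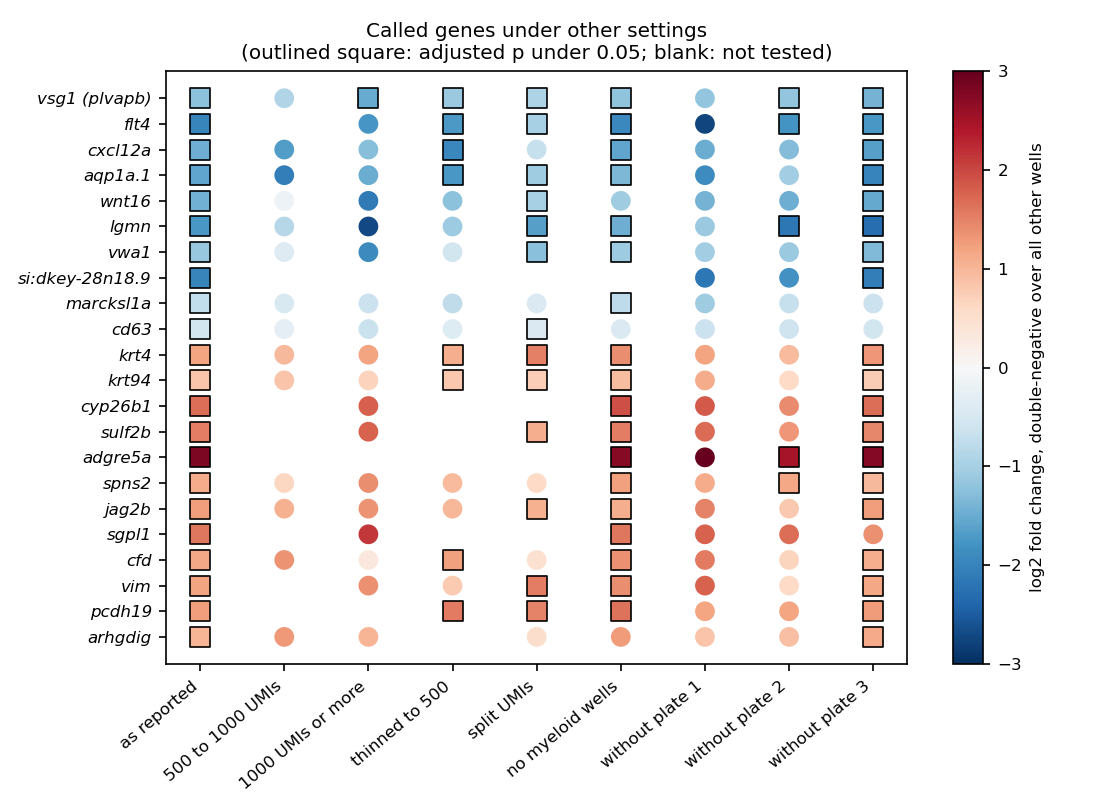
Log2 fold change of 22 called genes (double-negative over all other wells, colour) as reported and under 8 other settings. Outlined squares mark an adjusted p under 0.05 and blanks genes not tested. Without plate 1 and in wells of 500 to 1000 UMIs no square is outlined. Every gene tested keeps its colour side, in settings that reuse the wells that gave the calls.

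Myeloid transcripts were present in some double-negative wells on every plate, and the wells richest in them were mostly on plate 3. Without thinning, 10, 8 and 9 double-negative wells by plate had 3 or more myeloid UMIs, 27 of 115, against 105 of 557 in the rest. The 39 leukocyte, macrophage and neutrophil rows summed to 1723, 2608 and 13581 CPM in double-negative wells, against 1706, 715 and 3825 in the rest. The classes were nearly level on plate 1, and the sums overlapped. A single aqp8a.1-only well held 387 of the 808 myeloid UMIs of the rest on plate 1. In the rest 11 wells had 10 or more myeloid UMIs, 3, 2 and 6 by plate. At 500 UMIs per well, 0 of 47, 3 of 41 and 7 of 27 double-negative wells had 3 or more myeloid UMIs, 8.70% in all (10 of 115, 4.25% to 15.4%). In the rest these were 7 of 242, 2 of 230 and 8 of 85 wells, 3.05% in all (17 of 557, 1.79% to 4.84%). Since the plates differ and 3 plates allow no exact sign-flip p below 0.25, no test across plates was made of these shares.

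Of 5 myeloid genes tested 2 rose, csf1rb and arhgdig, and all 5 differences were positive (median log2 1.13). Over all 914 genes tested, 1.53% rose and 467 had positive differences. The macrophage growth factor receptor gene csf1rb stood at 183, 108 and 449 CPM against 4.22, 4.95 and 157 and rose by 3.15 ± 0.89 on the log2 scale (SE, edgeR adjusted p = 0.0489), with overlap. All 26 csf1rb UMIs lay in 6 wells, each with 10 or more myeloid UMIs, and 61.7% of arhgdig UMIs lay in wells with 3 or more. The neutrophil protease gene mmp9 had 0, 0 and 77 UMIs in double-negative wells of plates 1, 2 and 3 (log2 1.13 ± 0.48, SE, edgeR adjusted p = 0.331). The peroxidase gene mpx had 0, 0 and 19, and the pan-leukocyte gene ptprc had 1, 3 and 4.

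Double-negative wells rich in myeloid transcripts were poor in endothelial ones. Of the double-negative wells 10 had 10 or more myeloid UMIs, 1, 2 and 7 by plate, and these held 22 pan-endothelial UMIs among them, or 1341 CPM. The 88 wells with fewer than 3 myeloid UMIs held 8039, 8500 and 7853 pan-endothelial CPM by plate. The rest also showed lower values in such wells. There the 11 wells with 10 or more myeloid UMIs held 1043, 6438 and 1546 pan-endothelial CPM by plate. The 452 wells of the rest with fewer than 3 held 7586, 7790 and 9425. The richest double-negative well, on plate 3, had 87 myeloid UMIs from 15 genes, mmp9, il1b and mmp13a foremost, and no pan-endothelial UMI. A plate 2 well had 44 myeloid UMIs from 16 genes, among them csf1rb and c1qc, and again no pan-endothelial UMI. Among the 10 myeloid-rich double-negative wells, krt4, krt94 and adgre5a had UMIs in 4 each and arhgdig in 5. There sgpl1, cfd and vim had UMIs in 1 each, while cyp26b1, spns2, jag2b, sulf2b and pcdh19 had none. Without wells of 3 or more myeloid UMIs in either class, 36 of 638 genes passed, and 19 of the 22 testable genes of the 24 were among them.

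Stromal transcripts were sparse. The 25 fibroblast rows summed to 147, 43.1 and 326 CPM in double-negative wells against 218, 225 and 919.8 in the rest, lower on each plate. A single lymphatic-marker-only well held 51 of the 82 fibroblast UMIs of the rest on plate 3. No double-negative well had 3 fibroblast UMIs at 500 UMIs per well. At that depth 0 of 167 aqp8a.1-only wells and 2 of 153 lymphatic-marker-only wells reached 3. Of the 25 fibroblast rows, 8 had a UMI in double-negative wells, 12 in aqp8a.1-only wells and 14 in lymphatic-marker-only wells. These classes held 125469, 226902 and 206067 UMIs outside the rule genes. The proteoglycan genes dcn and lum were among the rows with 0 UMIs in double-negative wells. Mural cell rows summed to 549.9, 754 and 653 against 676, 614 and 617, with overlap. Most mural UMIs were of rgs5b, a regulator of G-protein signalling, which stood at 549.9, 603 and 367 against 581, 554 and 471 (log2 -0.02 ± 0.25, SE, edgeR adjusted p = 0.986). The smooth muscle genes acta2 and tagln and the pericyte gene notch3 had 0 UMIs in double-negative wells. Of 13 mural rows, 5 had a UMI in double-negative wells, 5 in aqp8a.1-only wells and 6 in lymphatic-marker-only wells. No fibroblast gene passed the low-count filter, so that list was not tested.

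Red blood cell rows summed to 55.0, 237 and 40.8 CPM against 275, 1539 and 33.6 in the rest, lower on plates 1 and 2. Of the 755 red blood cell UMIs of the rest, 471 lay in a single well with both markers and 599 in 3 wells. Thrombocyte rows summed to 36.7, 151 and 775 against 35.9, 64.3 and 146, and lymphocyte rows to 91.7, 43.1 and 530.2 against 23.2, 9.90 and 202. In double-negative wells these were 2, 7 and 19 thrombocyte UMIs and 5, 2 and 13 lymphocyte UMIs. Of the 28 thrombocyte UMIs 12 lay in a single well, as did 5 of the 20 lymphocyte UMIs. Muscle rows stood at 312, 496 and 693 against 885, 693 and 583. Pigment cell, osteoblast and nerve or glia rows had 1, 3 and 2 UMIs in all double-negative wells. In the comparison with all other wells, none of the thrombocyte, lymphocyte, erythroid, pigment, osteoblast or neural genes passed the low-count filter. In the fit of 4 classes 1 lymphocyte and 1 erythroid gene did, and neither was called.

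The double-negative wells were next set against aqp8a.1-only and lymphatic-marker-only wells, in comparisons that share the same double-negative sums. Against aqp8a.1-only wells 5 of 1208 genes fell (0.414%) and none rose (85 at an unadjusted p under 0.05; DESeq2 called 1 higher gene). All 5 genes are vessel genes. The 2 classes were chosen to differ in aqp8a.1, so this too is a description. The row vsg1 (plvapb), at 1063, 1035 and 1468 CPM, stood below 2309.7, 2554 and 2508 in aqp8a.1-only wells and fell by 1.06 ± 0.14 on the log2 scale (SE, edgeR adjusted p = 5.16e-05). The gene aqp1a.1 stood at 220.0, 43.1 and 449 against 1110.1, 1390.1 and 1085 and fell by 2.59 ± 0.41 (SE, edgeR adjusted p = 0.000323). The row si:dkey-208k22.3, paired with plvapa by RefSeq synonyms, stood at 257, 43.1 and 122 against 546, 1062 and 749 and fell by 2.29 ± 0.44 (SE, edgeR adjusted p = 0.00474). No sums overlapped for these 3 genes.

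The junctional cadherin gene cdh5 stood at 220.0, 259 and 530.2 CPM in double-negative wells against 761, 1255 and 674 in aqp8a.1-only wells and fell by 1.59 ± 0.32 on the log2 scale (SE, edgeR adjusted p = 0.00932). The fatty acid-binding protein gene fabp11a stood at 5426, 5496 and 3834 against 7690.1, 7832 and 5202 and fell by 0.44 ± 0.10 (SE, edgeR adjusted p = 0.0385). Of the higher genes, those with the smallest p are given as values. The transcription factor gene cebpb had log2 1.19 ± 0.30 (SE, edgeR adjusted p = 0.0752), cyp26b1 1.48 ± 0.39 (0.096), adgre5a 2.50 ± 0.66 (0.096), sulf2b 1.42 ± 0.40 (0.137) and krt4 0.87 ± 0.25 (0.138). Without plate 2 only vsg1 passed, without plate 1 there were 17 calls, and without wells of 3 or more myeloid UMIs there were 18.

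Against lymphatic-marker-only wells 22 of 1208 genes passed (1.82%), 8 higher and 14 lower (0.662% and 1.16%). Lymphatic genes led the fall: 3 of 9 tested fell, with a median of -1.54 beside 0.04 over all genes. The 2 classes were chosen to differ in lymphatic-marker UMIs, so this fall is a description. The gene cxcl12a stood at 238, 172 and 204 CPM against 910.0, 949 and 638 and fell by 2.02 ± 0.30 on the log2 scale (SE, edgeR adjusted p = 0.000216). The gene flt4 stood at 238, 108 and 81.6 against 583, 842 and 1082 and fell by 2.26 ± 0.35 (SE, edgeR adjusted p = 0.000216). The gene wnt16 fell by 1.92 ± 0.32 (edgeR adjusted p = 0.000442), and vsg1 by 0.93 ± 0.15 (edgeR adjusted p = 0.000216). For these 4 genes the sums did not overlap.

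The selenoprotein P gene, in the row sepp1a, fell by 1.24 ± 0.21 on the log2 scale (SE, edgeR adjusted p = 0.000487). The row si:dkey-28n18.9 fell by 2.60 ± 0.53 (edgeR adjusted p = 0.00535). It reached the low-count cutoff in all 3 lymphatic-marker-only sums and in no double-negative sum. Of 8 endocytosis and lysosome genes tested 3 fell, lgmn, cd63 and ctsla, a cathepsin gene (median -0.85). The adrenomedullin co-receptor gene ramp2, at 348, 388 and 245 CPM against 630.0, 747 and 1137, was the only one of 18 pan-endothelial genes called and fell by 1.17 ± 0.29 (edgeR adjusted p = 0.0211). The other calls that fell were vwa1, tnfaip2b, zfp36l1b and si:ch211-152c2.3.

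Higher against lymphatic-marker-only wells were krt4 (log2 1.12 ± 0.25, SE, edgeR adjusted p = 0.0121), spns2 (1.17 ± 0.28, edgeR adjusted p = 0.0189), adgre5a and sgpl1. The LIM domain protein gene lmo7a stood at 183, 280.2 and 285 CPM against 35.0, 59.3 and 55.5 and rose by 2.36 ± 0.52 (SE, edgeR adjusted p = 0.0101). The cysteine-rich protein gene crip2 stood at 623, 754 and 816 against 292, 439 and 277 and rose by 1.11 ± 0.28 (SE, edgeR adjusted p = 0.0322). The rows CABZ01030107.1 and si:ch211-225h24.2 rose as well (0.84 and 2.1). Of these 8 genes adgre5a, lmo7a, sgpl1 and si:ch211-225h24.2 reached the low-count cutoff in no sum of lymphatic-marker-only wells. With no filter 15 of the 22 genes kept their call. These were all the genes that fell and, of the 8 higher genes, adgre5a alone. Without plate 2 there were 2 calls, sepp1a and vsg1, without plate 1 there were 38, and without wells of 3 or more keratinocyte-list UMIs there were none of 369 tested (47 at an unadjusted p under 0.05).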

How the data were processed

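The authors deposited UMI counts per gene and well for 3 plates, with no normalization, and a list of analysed wells. Per the submitters' processing notes, Bowtie2 and the build GRCz10 were used, and the UMI collapsing rule is not given in the sources used here. Wells were classed by the 5 rule genes, which were then left out of library sizes and tests, as were 92 spike-in rows, all at 0. For each plate, the counts of a class were added up. The quasi-likelihood F-test of edgeR 4.0.16, run in R 4.3.3, compared these sums after TMM scaling and the standard low-count filter, with Benjamini-Hochberg adjustment. Plate was the block, since classes of a plate share its sort and libraries. The main contrast used 6 sums and the others 1 fit of 12. Of 15486 rows with a UMI in the wells used, 914 passed the filter in the main contrast. The script was tested on simulated data without plate differences and with 1 common spread, where 0.534% of unchanged genes were called. Gene names absent from the tables were matched through RefSeq synonyms. Members and lists were chosen with earlier results of these data known. Named genes were the 12 of smallest p per direction (6 in the other contrasts) that moved alike on all plates with at least 20 UMIs, called list members, and fli1a, pecam1 and kdrl. Alternatives changed the scaling, test, filter, block, plates, depth, rule, and wells with markers of other cells. Doublets were not called. Wells of 1 plate are not replicates.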

Additional observations from a re-analysis of the deposited data

Results flagged for a closer look

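Wells off the authors' list were not used in the comparisons. On plate 3, 45 such wells had at least 500 UMIs, and 9 of them (20%, exact 95% interval 9.58% to 34.6%) met the double-negative rule. These 9 wells held 260 myeloid UMIs, or 18846 CPM, and 56 pan-endothelial UMIs, or 4059 CPM, and 5 of them had 3 or more myeloid UMIs. Why they were left off the list was not tested.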

How the results depend on the processing

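Of the 24 genes called against all other wells, 23 kept their direction under every alternative that tested them; krt94 was at -0.14 without wells of 3 or more UMIs of another cell type's markers and at -0.049 without keratinocyte-marker wells. The 24 calls became 6 with DESeq2, 112 of 15481 with no filter, 8 with no replicate block, 1 in wells of at least 1000 UMIs, 0 in wells of 500 to 1000 UMIs, 10 after thinning with classes kept, 3 after thinning before the rule, 9 with aqp8a.1 at 0, 0 of 302 without other-cell wells (23 at an unadjusted p under 0.05) and 2 without keratinocyte-marker wells; leaving out 1 plate gave 0 to 33. Against aqp8a.1-only wells the 5 calls became 10 with no filter, 1 with no replicate block, 1 at 1000 UMIs, 8 and 11 after the same thinnings, 2 with aqp8a.1 at 0, 9 with split UMIs, 2 without other-cell wells, 18 without myeloid wells and 1 without keratinocyte-marker wells (1 to 17 without a plate). Against lymphatic-marker-only wells the 22 calls became 13 with no replicate block, 8 at 1000 UMIs, 7 at 500 to 1000 UMIs, 10 thinned with classes kept, 8 with aqp8a.1 at 0, 38 with split UMIs, 1 without other-cell wells, 51 without myeloid wells and 0 without keratinocyte-marker wells (2 to 38 without a plate). All 5 and all 22 kept their direction where tested. The alternatives reuse the wells that gave the calls, so kept directions are a description. The mean share of double-negative wells, 18.5%, became 36.8% after thinning and 11.01% with aqp8a.1 at 0 (15.7% to 20.2% without a plate). Among double-negative wells, pan-endothelial wells became 84.3% at 2 UMIs and 87.0% unthinned, myeloid wells 21.7% and 23.5%, and stromal wells 12.2% at 2 UMIs, from 4.35%. Uncalled markers changed sign: fli1a to 0.079 with split UMIs and 0.19 without other-cell wells, pecam1 to -0.18 with no filter, -0.034 without plate 2 (up to 0.41 without another plate) and -0.15 at 500 to 1000 UMIs, and kdrl to 0.079 at 1000 UMIs and 0.064 without the deepest wells. Against all other wells with no filter, the median log2 difference of all genes was -0.88. The settings without myeloid wells, without keratinocyte-marker wells and without the deepest wells were chosen after seeing the data. Stricter settings test fewer genes on fewer UMIs; otherwise the cause was not tested.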
